A study of Mus musculus with 63 samples.

Results

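The 37 genes described here encode the machinery of skeletal muscle, out of 24990 rows in the deposited RNA-seq tables. They are a list of gene names. The rule that selects them uses no measured value, but the list was drawn up with earlier results of these data known. The list held 4 myogenic regulators, 21 sarcomere genes, 4 genes of the muscle cell surface, 5 genes of calcium handling, membrane and energy supply, and 3 genes of filament assembly. All 37 were present in the tables.

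The study deleted Chaserr, a long noncoding RNA gene that lies upstream of Chd2, a chromatin remodeller gene, in mice. Guides were injected on the CB6F1 Ola HSD background, followed by backcrossing to C57BL/6 Ola HSD (C57black6 in the labels). RNA-seq covered 47 libraries of whole embryos, adult brains, mouse embryonic fibroblasts (mEFs) and an RNA immunoprecipitation, and ATAC-seq covered 12 mEF libraries. The Chaserr deletion removed the promoter and the first exon and was kept in 2 founder lines that were used interchangeably. The Chd2m allele carries a frameshift deletion of 2 bases in exon 3. Whole WT and Chaserr+/- embryos were collected at E9.5 and at E13.5 (3 libraries per group). Adult brains were WT or Chaserr+/- (3 libraries per group). The mEFs were grown as primary cultures from the bodies of E13.5 embryos after removal of head and liver, and can hold any cell type of the trunk and limbs. The mEFs came in 4 sets, each with WT libraries of its own. The Chaserr+/- set (3 WT and 3 Chaserr+/-) and the Chaserr-/- set (3 WT, numbered 4 to 6, and 3 Chaserr-/-) each came from 1 pregnancy by their labels. The Chd2m/m set had 3 WT and 2 Chd2m/m libraries, and the double mutant set had 3 WT and 3 Chaserr-/- Chd2m/m libraries, whose Chaserr deletion was made anew on the Chd2m/m background. In the double mutant set, the labels named the Chd2+/m cross for the mutants and the Chaserr+/- Chd2+/m cross for the WT mEFs. No label states that each library came from its own embryo, so the p-values measure the spread between these libraries.

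Skeletal muscle arises from somite progenitors that switch on the myogenic regulators Myf5, Myod1, Myog and Myf6, transcription factors that bind E-box sequences together with E proteins. Myf5 and Myod1 commit cells to the lineage, and Myog drives the differentiation and fusion of myoblasts into multinucleate myotubes. Differentiated cells then make the sarcomere, the calcium release system and the acetylcholine receptor, and several of these genes are also used by the embryonic heart, whose contractile program starts before that of the limbs and trunk.

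Several members lie near each other on the same chromosome, a feature that the list did not use (mm9, GENCODE vM1). Whether other genes lie between them was not examined. Myf5 (chr10:106919964-106923190, minus strand) lay close to Myf6 (chr10:106929916-106931785, minus strand). The receptor genes Chrnd (chr1:89087227-89096644) and Chrng (chr1:89102386-89108410) both lay on the plus strand. Tnni1 (chr1:137679642-137707566) preceded Tnnt2 (chr1:137737452-137748837), and Tnni2 (chr7:149627713-149630315) preceded Tnnt3 (chr7:149684741-149701914). The myosin heavy chain genes Myh3 (chr11:66891802-66915793) and Myh8 (chr11:67090626-67122136) are close paralogs, as are the actins Acta1 and Actc1, so reads that match both were divided between them by RSEM and their separate levels are less certain. Mybph (chr1:136090025-136097808) preceded Myog (chr1:136186581-136189124), both on the plus strand. Myod1 stood alone at chr7:53631844-53634462, also on the plus strand.

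RefSeq promoter sequences of GRCm38.p6, 250 bases before to 50 bases after the start site, were found for 30 of the 37 members. The E-box CAGCTG, searched on both strands, was present in 14 of these 30 (46.7%) and in 16.3% of all 32851 promoters of that length. The wider E-box pattern CANNTG, which includes CAGCTG, was present in 26 members (86.7%) against 72.3% of all promoters. The CArG box, the motif of serum response factor, matched in Acta1 and Actc1 (6.67% of members against 1.63%), and the MEF2 motif matched in Casq2, Klhl41, Myh8 and Ttn (13.3% against 1.86%). These matches are letters in a window and were not tested as binding sites. The 250 bases upstream of the start site are shown for 5 members that carry the motifs and recur in the results below, with CAGCTG, CArG and MEF2 matches in capitals. They encode skeletal alpha actin (Acta1, chr8:123894776-123895025, minus strand), cardiac alpha actin (Actc1, chr2:114052876-114053125, minus strand), 2 acetylcholine receptor subunits (Chrna1, chr2:73580339-73580588, minus strand, and Chrng, chr1:87205561-87205810, plus strand) and the filament assembly factor kelch-like 41 (Klhl41, chr2:69669870-69670119, plus strand).
Acta1: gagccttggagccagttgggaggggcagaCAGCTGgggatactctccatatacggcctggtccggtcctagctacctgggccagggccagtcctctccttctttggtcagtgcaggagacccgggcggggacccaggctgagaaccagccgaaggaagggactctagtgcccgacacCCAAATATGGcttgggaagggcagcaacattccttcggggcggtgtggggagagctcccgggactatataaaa
Actc1: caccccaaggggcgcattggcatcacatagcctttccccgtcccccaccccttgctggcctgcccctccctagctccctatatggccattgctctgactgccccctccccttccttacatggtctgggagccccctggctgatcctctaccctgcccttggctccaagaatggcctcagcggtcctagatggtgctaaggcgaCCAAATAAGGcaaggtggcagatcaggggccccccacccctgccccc
Chrna1: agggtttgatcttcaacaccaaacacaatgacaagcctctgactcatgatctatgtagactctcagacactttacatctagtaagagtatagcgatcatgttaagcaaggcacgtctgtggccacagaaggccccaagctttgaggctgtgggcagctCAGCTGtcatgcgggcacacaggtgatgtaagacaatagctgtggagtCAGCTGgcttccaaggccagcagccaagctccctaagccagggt
Chrng: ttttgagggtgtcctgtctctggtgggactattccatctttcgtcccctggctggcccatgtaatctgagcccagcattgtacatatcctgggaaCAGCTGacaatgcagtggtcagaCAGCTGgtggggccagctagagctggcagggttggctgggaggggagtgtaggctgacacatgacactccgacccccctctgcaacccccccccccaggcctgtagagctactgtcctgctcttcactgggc
Klhl41: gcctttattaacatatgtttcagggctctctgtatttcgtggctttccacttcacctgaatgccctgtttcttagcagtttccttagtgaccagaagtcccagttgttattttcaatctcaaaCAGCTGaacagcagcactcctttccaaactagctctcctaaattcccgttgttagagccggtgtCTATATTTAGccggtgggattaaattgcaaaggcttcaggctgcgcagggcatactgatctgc

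Library totals lay between 21589962 and 31293072 counts in embryos, 13956040 and 33192002 in brains, and 9672637 and 16983416 in mEFs. The targeted genes followed the labels in all sets but 1: Chaserr was at 0 TPM in the 3 Chaserr-/- libraries and at 0 to 0.23 TPM in the 3 double mutant libraries, and in each set the mutant libraries all had more Chd2 than the WT libraries. In E13.5 embryos, Chaserr in Chaserr+/- replicate 3 (42.5 TPM) was above WT replicate 1 (42.1 TPM). Among WT mEFs, Chaserr was at 93.7, 90.0 and 80.0 TPM in the double mutant set and at 8.63 to 22.2 TPM in the other sets. The double mutant comparisons use those high WT libraries as their reference, and the cause of the gap was not tested. TPM, the share of transcripts in a library, is a level per length, so it can be compared between genes. A log2 fold change is a difference between groups from edgeR's fit, and a gene was called at a Benjamini-Hochberg adjusted p under 0.05 over all rows tested. The fit scales library totals by its own factors (TMM), so a log2 fold change can differ from the ratio of mean TPM. Where it is small, the sign can differ too, as for Actc1 between the stages in WT.

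One library stood apart from its group and is described before the results that rest on it. In Chaserr+/- replicate 3 at E9.5, 20 of the 26 members at 1 TPM or more in the other 5 E9.5 libraries were below all 5, and 8 were more than 10-fold below the lowest of them. Actc1 was at 24.7 TPM in that library and at 577 to 904 TPM in the others. Myl1, an essential light chain of fast muscle myosin, was at 0.95 TPM against 43.0 to 54.1 TPM. Myl4, the atrial and embryonic light chain, was at 11.4 TPM against 230 to 340 TPM. Markers of the heart were low in the same library. Their summed level was 42.1 TPM against 745 to 1140 TPM, with 6 of 10 more than 10-fold below the lowest other library, and Nppa, atrial natriuretic peptide, was at 0 TPM against 47.1 to 86.3 TPM. Of the myogenic regulators, Myog and Myf5 were not low there. Myog was at 3.49 TPM against 2.72 to 5.78 TPM, and Myf5 at 2.83 TPM against 1.18 to 2.57 TPM. Myf6 was below all other libraries, at 0.32 TPM against 0.54 to 1.2 TPM. Myod1 was near 0 in all E9.5 libraries, at 0 TPM in this one against 0 to 0.05 TPM. The summed level of 12 progenitor genes was 191 TPM against 135 to 183 TPM. The part of this library's low heart markers in the results was not tested, and the main counts, medians and fitted values that include it are given with and without it.

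**Figure D1:**
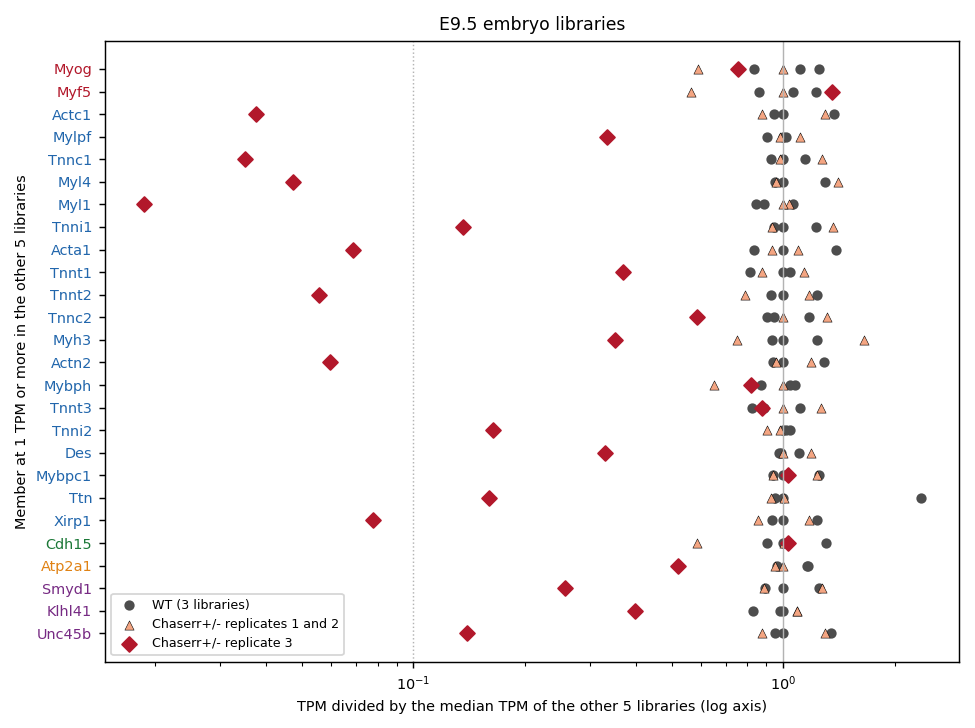
TPM of the 26 members at 1 TPM or more in the other 5 E9.5 libraries, each divided by the median of those 5 libraries (log axis, dotted line at 0.1); circles are WT, triangles Chaserr+/- replicates 1 and 2, and diamonds Chaserr+/- replicate 3. The diamonds lie below all other symbols for 20 members, and near them for Myog, Myf5, Mybph, Tnnt3, Mybpc1 and Cdh15.

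Between E9.5 and E13.5, WT embryos gained most of the skeletal muscle genes. Of 37 members, 32 were called (28 rose and 4 fell), in a comparison that called 80.4% of all genes (42.1% higher and 38.3% lower). Many of the rises were large: 17 of 37 were called and at least 10-fold higher, against 6.58% of all genes, and the median log2 fold change was 3.02 over the members and 0.06 over all genes tested. All counts here were from edgeR's quasi-likelihood test, and leaving out any 1 library gave 32 or 33 called members. In whole-embryo RNA, more muscle cells and more RNA per muscle cell cannot be told apart.

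The 4 regulators did not move together. Myod1 had 3 counts over the 3 E9.5 WT libraries (0.04 TPM in each) and 2330 counts over the 3 E13.5 WT libraries (40.4, 29.1 and 27.8 TPM), a scaled ratio of 634 with an exact interval of 217 to 3080 at 95% that covers counting error only. Myog, the differentiation factor, was at 5.78, 3.85 and 5.13 TPM at E9.5 and at 164, 134 and 129 TPM at E13.5 (log2 fold change 4.59, SE 0.14, adjusted p = 8.15e-09). Every E13.5 library was far above every E9.5 library for both genes. Myf5, the first regulator expressed in the somite, was at 2.57, 2.22 and 1.80 TPM at E9.5 and at 4.04, 2.82 and 2.56 TPM at E13.5 (log2 fold change 0.26, SE 0.22, adjusted p = 0.312), and the stages overlapped. Myf6 was at 1.20, 0.54 and 0.97 TPM and then at 0.80, 1.20 and 0.71 TPM (log2 fold change -0.25, SE 0.37, adjusted p = 0.539), also with overlap. At E13.5 the order of levels was Myog, Myod1, Myf5 and Myf6, and no library of one of these genes overlapped with the next in that order.

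Among the sarcomere genes 16 rose, 3 fell and 2 were not called, with a median log2 fold change of 2.66. The largest rises were those of Myh8, Mylpf and Myh3. The perinatal chain Myh8 was at 0.23, 0.18 and 0.19 TPM at E9.5 and at 32.1, 23.6 and 21.1 TPM at E13.5 (log2 fold change 6.73, SE 0.22, adjusted p = 1.06e-08). The embryonic chain Myh3 was at 3.24, 2.45 and 2.63 TPM and then at 136, 97.0 and 89.4 TPM (log2 fold change 5.02, SE 0.18, adjusted p = 1.60e-08). Mylpf, the fast regulatory light chain, was at 15.8, 16.1 and 14.3 TPM and reached 873, 587 and 606 TPM (log2 fold change 5.22, SE 0.18, adjusted p = 1.34e-08). The stages did not overlap for any of these 3 genes, and E13.5 WT replicate 1 was the highest of the 6 libraries for 29 of the 37 members. The fast troponin C gene Tnnc2 (4.98), myosin binding protein H (Mybph, 4.75), nebulin (Neb, 4.19) and the slow troponin T gene Tnnt1 (4.12) followed by log2 fold change. At E13.5 the most abundant members were Actc1 (a mean of 764 TPM), Mylpf (689 TPM), Tnnc1 (343 TPM), Myl4 (341 TPM) and Myl1 (306 TPM).

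Sarcomere genes that were already abundant at E9.5 had mixed values. Myl1 (2.66), Acta1 (1.63), Tnnc1 (1.05), Actn2 (0.91) and Tnni1 (0.61) rose by these log2 fold changes. Actc1 was at 660, 624 and 904 TPM at E9.5 and at 898, 643 and 750 TPM at E13.5 (log2 fold change -0.19, adjusted p = 0.251), and Myl4 differed by 0.12 on the log2 scale (adjusted p = 0.326). Xirp1, which encodes an actin-binding protein of the intercalated disc, fell from 4.54, 4.88 and 6.02 TPM to 1.70, 1.57 and 1.89 TPM (log2 fold change -1.83, SE 0.13, adjusted p = 6.99e-07). Titin (Ttn) fell from 2.97, 3.13 and 7.36 TPM to 2.66, 2.05 and 1.89 TPM (log2 fold change -1.28, SE 0.30, adjusted p = 0.00346). The cardiac troponin T gene Tnnt2 fell by 0.61 on the log2 scale (adjusted p = 0.00279), although in TPM its stages overlapped (154, 166 and 205 at E9.5 and 139, 109 and 165 at E13.5). Among markers of other cell types, 8 of 10 heart markers fell and none rose, with a median log2 fold change of -2.18. Their summed level ran from 861 to 1140 TPM at E9.5 and from 135 to 320 TPM at E13.5, and their part in the members' values was not tested. Neuron and fibroblast markers rose too, with 6 of 6 neuron genes (median log2 fold change 3.16) and 9 of 10 fibroblast genes (median 1.82) called higher.

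The other classes rose almost throughout. Each of the 4 surface genes rose (median log2 fold change 3.78): the acetylcholine receptor subunits Chrnd (4.34), Chrng (4.20) and Chrna1 (3.37), and the muscle cadherin Cdh15 (2.59). Each of the 5 genes of calcium handling, membrane and energy supply rose (median 3.93). Casq2, a calcium-storing protein of the sarcoplasmic reticulum, was at 0.80, 0.41 and 0.42 TPM and then at 48.6, 36.9 and 38.3 TPM (log2 fold change 5.98, SE 0.21, adjusted p = 1.37e-08). Ckm, muscle creatine kinase, was at 0.17, 0.18 and 0.11 TPM and then at 12.7, 4.97 and 8.52 TPM (log2 fold change 5.51, SE 0.48, adjusted p = 3.51e-06). Neither gene's stages overlapped. Of the assembly genes, Klhl41 rose (3.02), the myosin chaperone Unc45b fell from 17.2, 18.1 and 24.3 TPM to 12.4, 11.8 and 13.0 TPM (-0.93, SE 0.12, adjusted p = 5.17e-05), and the methyltransferase Smyd1 was not called (0.02). Of 41 tested genes on a wider list of muscle genes, 25 rose and 8 fell.

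**Figure D2:**
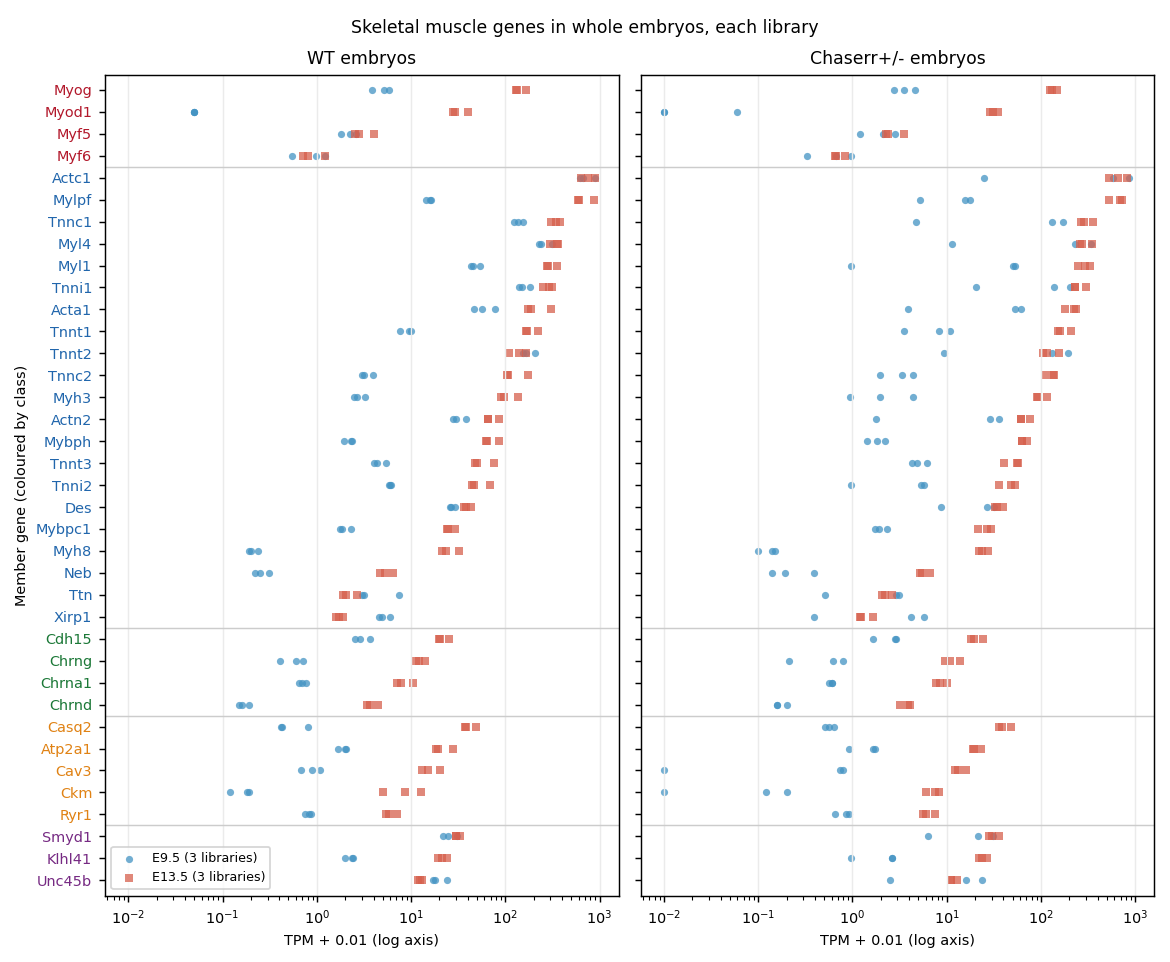
TPM of each member in each E9.5 (circles) and E13.5 (squares) library of WT and Chaserr+/- embryos, on a log axis after adding 0.01; gene names are red for regulators, blue for sarcomere, green for surface, orange for calcium, membrane and energy, and purple for assembly genes. Myog rose from 3.85 to 5.78 TPM to 129 to 164 TPM in WT, and the isolated low circles of Chaserr+/- embryos, such as Actc1 at 24.7 TPM, belong to replicate 3.

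Chaserr+/- embryos gained genes of all 5 classes. Of 37 members 24 rose and none fell (edgeR; 24 had an unadjusted p under 0.05, all higher), while 74.5% of all genes were called (37.9% higher), and the median log2 fold change was 3.21 against 0.03 over all genes. Without E9.5 replicate 3, 30 members were called, 26 of them higher, and the median was 2.95. In that fit 11573 of 16159 genes were called, 5871 of them higher. Myod1 had 1 count over the 3 E9.5 libraries and 2570 over the 3 E13.5 libraries (29.0, 35.2 and 31.1 TPM), a scaled ratio of 1910 with an exact interval of 343 to 75500. Myog was at 2.72, 4.63 and 3.49 TPM and then at 126, 148 and 131 TPM (log2 fold change 4.98, SE 0.17, adjusted p = 2.10e-06). Of the other members Myh8 rose most (log2 fold change 7.45), ahead of Casq2 (5.91), Ckm (5.69), Mylpf (5.39) and Myh3 (5.15). Without E9.5 replicate 3 these values were 4.97 for Myog, 7.53 for Myh8, 5.84 for Casq2, 5.69 for Ckm, 5.01 for Mylpf and 4.75 for Myh3. Myf5 was at 1.18, 2.09 and 2.83 TPM and then at 2.26, 3.52 and 2.35 TPM (log2 fold change 0.15), and Myf6 at 0.66, 0.96 and 0.32 TPM and then at 0.82, 0.64 and 0.66 TPM (log2 fold change -0.10), with overlap in both. Without that library their values were 0.47 and -0.43, neither called.

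The stage difference itself was then compared between genotypes. None of the 37 members was called in the interaction of stage and genotype, and none had an unadjusted p under 0.05 (edgeR, and DESeq2 also called 0), against 0.0124% of all genes called and 3.97% at an unadjusted p under 0.05 in edgeR. Over all genes DESeq2 called 8 of 16173. The median difference of the 2 stage effects was 0.25 on the log2 scale, and -0.05 without Chaserr+/- replicate 3 at E9.5. For Myog the difference was 0.42 (SE 0.24, adjusted p = 0.963, edgeR), and 0.41 without that library.

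At each stage, Chaserr+/- embryos were also set against WT embryos. At E9.5, none of the 34 members tested was called (Myod1, Chrnd and Ckm did not pass the filter on low counts), and 1 had an unadjusted p under 0.05, against 0.0% of all genes called and 3.12% at an unadjusted p under 0.05 (edgeR). DESeq2 called 0, with 0 at an unadjusted p under 0.05. Over all 14500 genes it called 5, with 304 at that level. Of the 34, 30 had a negative log2 fold change (50.1% of all genes did), with a median of -0.35, which became 0.02 without Chaserr+/- replicate 3. The gene with the smallest p was Myh8, at 0.23, 0.18 and 0.19 TPM in WT and at 0.09, 0.14 and 0.13 TPM in Chaserr+/- (log2 fold change -0.77, SE 0.30, unadjusted p = 0.0324, edgeR). Its groups did not overlap, and without replicate 3 the value was -0.87. Myog (log2 fold change -0.43, SE 0.24, unadjusted p = 0.109) and Ttn (-1.01, unadjusted p = 0.146) were next, at -0.42 and -0.53 without replicate 3. In the same comparison each of the 10 heart markers had a negative value (median -0.56), as had 9 of the 10 fibroblast genes, 5 of them at an unadjusted p under 0.05. Their part in the members' values was not tested.

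At E13.5, when the members were abundant, the log2 fold changes between genotypes were small. None of the 37 was called and none had an unadjusted p under 0.05 in edgeR, against 0.0314% called and 6.34% at an unadjusted p under 0.05 over all genes. DESeq2 called 0 and had 1 at an unadjusted p under 0.05. Over all 15946 genes it called 21 and had 894 at that level. The log2 fold changes ran from -0.30 to 0.22 with a median of -0.04. WT replicate 1 was the highest library for 28 members, and without it the median was 0.11, still with 0 called. In that fit 7 members had an unadjusted p under 0.05, as had 905 of 16168 genes. Myod1 was at 40.4, 29.1 and 27.8 TPM in WT and at 29.0, 35.2 and 31.1 TPM in Chaserr+/- (log2 fold change 0.03), and Myog had a log2 fold change of -0.02. Their genotypes overlapped. The smallest p belonged to Klhl41, at 24.2, 21.4 and 19.3 TPM in WT and at 22.2, 26.9 and 23.5 TPM in Chaserr+/- (log2 fold change 0.22, SE 0.10, unadjusted p = 0.061), which also overlapped. Xirp1 (1.70, 1.57 and 1.89 TPM against 1.22, 1.63 and 1.18 TPM, log2 fold change -0.30) and Myl4 (354, 301 and 366 TPM against 273, 350 and 261 TPM, log2 fold change -0.16) followed, both with overlap.

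Adult brains held little of this program. The 4 regulators were between 0 and 0.43 TPM in all 6 brain libraries, and the 37 members summed to between 118 and 183 TPM, against 3710 to 5040 TPM in WT E13.5 embryos. Of the 19 members tested, none of them a regulator, 0 were called and 1 had an unadjusted p under 0.05 in edgeR (DESeq2 also gave 0 and 1), against 0.0% called and 2.47% at an unadjusted p under 0.05 over all genes. That gene was Smyd1, at 3.50, 5.43 and 4.07 TPM in WT and 1.83, 0.69 and 2.19 TPM in Chaserr+/- (log2 fold change -1.48, SE 0.44, unadjusted p = 0.0115, edgeR), without overlap. Tnnt1 was at 10.7, 16.4 and 22.7 TPM in WT and at 11.6, 8.68 and 3.77 TPM in Chaserr+/- (log2 fold change -1.01), with overlap. Tnnt2 had a log2 fold change of 0.80. Over all genes DESeq2 called 1 of 14911, with 492 at an unadjusted p under 0.05. Replicate 3 of both brain groups was made with another library kit. With that kit as a covariate, 0 members were called and 6 had an unadjusted p under 0.05, as had 2258 of 14911 genes.

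The mEF cultures held these 37 transcripts in amounts that depended on the set, already among WT libraries. The 37 members summed to 536 to 621 TPM in the 3 WT libraries of the Chaserr+/- set, 764 to 1250 TPM in those of the Chd2m/m set, 982 to 1190 TPM in those of the double mutant set, and 1610 to 2590 TPM in those of the Chaserr-/- set. Myog was at 5.63, 7.07 and 6.56 TPM in WT mEFs of the Chaserr+/- set, 9.86, 16.9 and 12.1 TPM of the Chd2m/m set, 16.1, 19.9 and 12.2 TPM of the double mutant set, and 51.8, 43.0 and 33.8 TPM of the Chaserr-/- set. The WT libraries of the Chaserr+/- set were below, and those of the Chaserr-/- set above, all other WT libraries, while the 2 sets between them overlapped. Myod1 had the same extremes, at 3.29, 4.31 and 3.89 TPM in the Chaserr+/- set and 26.3, 30.3 and 18.7 TPM in the Chaserr-/- set, with 5.44 to 7.86 TPM in the other sets (adjusted p = 4.42e-08, edgeR F test over the 4 sets). Myf5 was at 1.12 TPM or less in every WT mEF library and did not differ in that test (adjusted p = 0.752), and Myf6 was at 0 in all of them but 1, which had 0.13 TPM.

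Across the 35 members tested, 34 differed between the WT sets, in a test that called 88.1% of all genes. The direction was shared: the Chaserr-/- set had the highest mean for 33 of 35 (31.6% of all genes), and all 3 of its WT libraries were above the other 9 for 22 of 35 (14.2% of all genes). The Chaserr+/- set had the lowest mean for 29 of 35 (17.4% of all genes). The ratio of the highest to the lowest set mean had a median of 3.46 and ran from 1.58 for Myf5 to 6.68 for Myog. Desmin (Des), an intermediate filament protein of all muscle types, differed 1.67-fold. Klhl41 and Smyd1 were highest in the double mutant set instead. The summed levels of other cell type lists also differed between the WT sets. Smooth muscle genes were at 7670 to 8470 TPM in the Chaserr+/- set, 5830 to 6750 TPM in the Chaserr-/- set, 8970 to 10900 TPM in the Chd2m/m set and 4750 to 5670 TPM in the double mutant set, and fibroblast genes were at 1570 to 1870 TPM in the Chd2m/m set and at 3690 to 5650 TPM in the others. Neuron genes had the same extremes as the members, at 105 to 110 TPM in the Chaserr+/- set, 130 to 159 TPM in the Chd2m/m and double mutant sets and 177 to 193 TPM in the Chaserr-/- set. The summed level of the wider list of muscle genes did not. It was 557 to 628 TPM in the Chaserr-/- set and 634 to 682 TPM in the Chaserr+/- set. It was 672 to 760 TPM in the Chd2m/m set and 584 to 678 TPM in the double mutant set. That sum is not specific to skeletal muscle. In WT adult brains it was 308 to 339 TPM, while the members summed to 145 to 166 TPM. Which genes of the wider list make up its sum in mEFs was not tested. The set and its pregnancy or cross cannot be told apart, and the part of the other cell types in the members' levels was not tested.

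**Figure D3:**
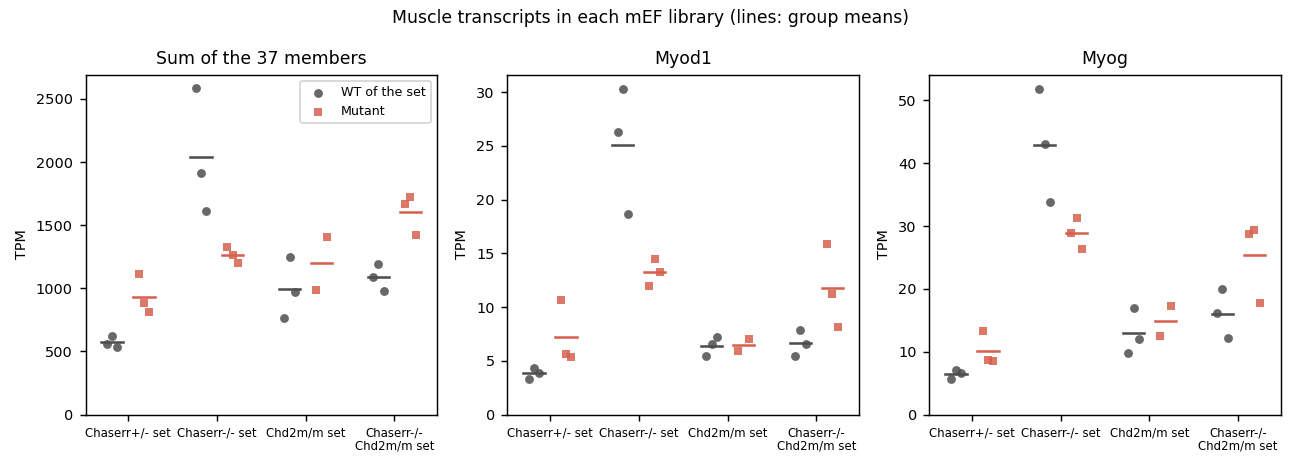
Summed TPM of the 37 members, and TPM of Myod1 and Myog, in each mEF library, by set; circles are WT, squares the mutant of the set, and lines the group means. The WT libraries of the Chaserr-/- set are the highest circles (1610 to 2590 TPM summed), and for the summed level the mutant squares lie above the WT circles in the Chaserr+/- and double mutant sets and below them in the Chaserr-/- set.

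In Chaserr+/- mEFs, the members had higher fitted levels than in WT mEFs of the same pregnancy, and few of them passed the test. Of the 33 tested (Myf5, Myf6, Ckm and Unc45b did not pass the filter), 4 rose by edgeR's test, against 0.173% of all genes called and 0.128% called higher. Each of the 33 had a positive log2 fold change (50.4% of all genes did), 27 had an unadjusted p under 0.05 and were higher (5.25% of all genes), and in 26 the 3 Chaserr+/- libraries all lay over the 3 WT libraries (7.65% of all genes). The median was 0.71, against 0.00 over all genes. The 37 members summed to 536 to 621 TPM in WT and to 812 to 1110 TPM in Chaserr+/-.

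The 4 called members were all sarcomere genes. Titin (Ttn), the elastic filament of the sarcomere, was at 0.77, 0.98 and 0.83 TPM in WT and 1.70, 1.44 and 1.33 TPM in Chaserr+/- (log2 fold change 0.75, SE 0.11, adjusted p = 0.0291, edgeR). Tnnc1, slow and cardiac troponin C, was at 27.8, 31.9 and 25.1 TPM and at 56.3, 44.5 and 51.5 TPM (0.83, SE 0.13, adjusted p = 0.0369). The groups did not overlap for either gene. Myl4 was at 35.6, 40.4 and 33.3 TPM and at 58.4, 64.0 and 54.2 TPM (0.68, SE 0.11, adjusted p = 0.0369), and Myl1 at 35.6, 39.8 and 30.3 TPM and at 56.2, 60.1 and 55.5 TPM (0.67, SE 0.11, adjusted p = 0.0369), again without overlap.

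The regulators were not called, with log2 fold changes within the range of the sarcomere genes. Myod1 was at 3.29, 4.31 and 3.89 TPM in WT and at 10.7, 5.59 and 5.37 TPM in Chaserr+/- (0.91, SE 0.27, adjusted p = 0.309), and Myog at 5.63, 7.07 and 6.56 TPM and at 13.3, 8.71 and 8.56 TPM (0.65, SE 0.20, adjusted p = 0.341). Neither gene's groups overlapped, and Chaserr+/- replicate 1 had the highest value in both, as it had for 25 of the 33 members. The median log2 fold change was 0.78 over the 2 regulators tested, 0.73 over the 21 sarcomere genes, 0.68 over the surface genes, 0.65 over the calcium, membrane and energy genes and 0.52 over the assembly genes. Des had 0.06. On the wider muscle list, 28 of 28 tested genes had a positive value and 10 an unadjusted p under 0.05, while smooth muscle and fibroblast genes had 1 each at that level, both lower. Of 6 heart markers tested, 5 had a positive value and 3 were higher at that level (median 0.32), and their part in the members' values was not tested. The calls were lost without any 1 of the WT libraries (0 called). Without Chaserr+/- replicate 2, 1 member was called (13 of 13320 genes), and 8 without replicate 1 (54 of 13302 genes). DESeq2 called 16 members and 99 of 13282 genes, and a fit over all mEF libraries called 0 members and 7 of 15124 genes.

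In Chaserr-/- mEFs nearly all members had lower fitted levels than in WT mEFs of their pregnancy, again with few past the test. Of 35 tested (Myf6 and Ckm did not pass the filter), 2 fell by edgeR's test, against 0.118% of all genes called and 0.0957% called lower. Of the 35, 33 had a negative log2 fold change (51.5% of all genes did), 19 had an unadjusted p under 0.05, all of them lower (16.1% of all genes were lower at that level), and in 21 the 3 Chaserr-/- libraries all lay under the 3 WT libraries (21.4% of all genes). The median was -0.58 against -0.02 over all genes. The 37 members summed to 1610 to 2590 TPM in WT and to 1200 to 1330 TPM in Chaserr-/-, a level still above that of every library of the Chaserr+/- set.

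Skeletal alpha actin (Acta1) fell from 243, 215 and 200 TPM in WT to 84.6, 118 and 108 TPM in Chaserr-/- (log2 fold change -1.15, SE 0.16, adjusted p = 0.0354, edgeR). Mybph, a thick filament protein, fell from 43.5, 38.3 and 33.5 TPM to 18.5, 21.1 and 16 TPM (-1.12, SE 0.16, adjusted p = 0.0439). The groups did not overlap for either gene. A further 8 members had an adjusted p of 0.0522 and were not called: Myod1, Tnni1, Actn2, Actc1, Chrna1, Chrng, Cdh15 and Atp2a1. Myod1 was at 26.3, 30.3 and 18.7 TPM in WT and 12, 14.5 and 13.3 TPM in Chaserr-/- (-0.99, SE 0.20), without overlap. Myog was at 51.8, 43.0 and 33.8 TPM and at 28.9, 31.2 and 26.4 TPM (-0.65, SE 0.18, adjusted p = 0.0546), also without overlap. Myf5 was at 1.12, 0.44 and 0.24 TPM and at 1.09, 0.91 and 0.27 TPM (0.23, adjusted p = 0.818), with overlap.

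The values in Chaserr-/- mEFs are given by class, and the classes were not tested against each other. The 4 surface genes had a median of -0.86 and an unadjusted p under 0.05 each, with Chrng at -1.04 and Cdh15 at -0.93. The genes of calcium handling, membrane and energy supply had a median of -0.72 (3 of 4 at an unadjusted p under 0.05), with Atp2a1, the fast calcium pump, at -0.88. The sarcomere genes had a median of -0.43 (9 of 21), from -1.24 for Actc1 to -0.02 for Mybpc1, and the assembly genes -0.22. Within 1 protein complex, the slow troponin I gene Tnni1 had -0.88 while the troponin T gene Tnnt1 had -0.22 and Tnnc1 had -0.15. WT replicate 4 was the highest library for 32 of the 35 members, and without it the median was -0.38 and 0 were called. In that fit 11 members had an unadjusted p under 0.05, as had 3855 of 13743 genes. Calls were also 0 without WT replicate 5 or 6 or without Chaserr-/- replicate 3. They were 10 without Chaserr-/- replicate 1 (1015 of 13842 genes called) and 11 without replicate 2 (2827 of 13770 genes called). DESeq2 called 13 members and 2582 of 13580 genes. On the wider muscle list 21 of 28 tested genes had a negative value (median -0.35), with 9 lower and 1 higher at an unadjusted p under 0.05. On the smooth muscle list 4 of 8 genes had an unadjusted p under 0.05, all lower, and of the fibroblast genes 2 were higher and 1 lower at that level, with Twist1 at 65.6 to 88.0 TPM in WT and 126 to 198 TPM in Chaserr-/-. Their part in the members' values was not tested.

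In Chd2m/m mEFs, 0 of 35 members were called and 1 had an unadjusted p under 0.05 (edgeR, and DESeq2 also gave 0 and 1), against 0.0145% of all genes called and 4.51% at an unadjusted p under 0.05 in edgeR. Over all genes DESeq2 called 8 of 13777, with 291 at an unadjusted p under 0.05. Of the 35, 33 had a positive log2 fold change (50.2% of all genes did), with a median of 0.27. These values rested on single libraries: WT replicate 1 was the lowest of the 5 for 32 members and Chd2m/m replicate 2 the highest for 25, and the median was 0.10 without the former and -0.02 without the latter. Cav3, a muscle caveolin, had the smallest p, at 3.99, 4.78 and 2.71 TPM in WT and at 5.83 and 6.41 TPM in Chd2m/m (0.68, SE 0.26, unadjusted p = 0.0229, edgeR), without overlap. Ttn (0.30) and Tnnc1 (0.45) were next. Myod1 was at 5.46, 6.56 and 7.21 TPM and at 5.87 and 7.03 TPM (0.01), and Myog at 9.86, 16.9 and 12.1 TPM and at 12.5 and 17.3 TPM (0.19), both with overlap. On the wider muscle list 20 of 33 tested genes had a positive value (median 0.05), with 1 higher and 1 lower at an unadjusted p under 0.05.

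In Chaserr-/- Chd2m/m mEFs, nearly all members had higher fitted levels than in WT mEFs of their set, opposite in sign to the Chaserr-/- set. Of 35 tested, 1 rose by edgeR's test, against 0.0924% of all genes called and 0.0497% called higher. Of the 35, 34 had a positive log2 fold change (47.6% of all genes did), 26 had an unadjusted p under 0.05 and were higher (4.16% of all genes), and in 23 the 3 mutant libraries all lay over the 3 WT libraries (6.46% of all genes). The median was 0.55 against -0.01 over all genes, and the members summed to 982 to 1190 TPM in WT and to 1420 to 1720 TPM in the mutant. Tnnc1 rose from 58.2, 57.4 and 57.6 TPM to 102, 116 and 102 TPM (0.87, SE 0.11, adjusted p = 0.0294), with tight groups that did not overlap.

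The regulators of the double mutant had a median of 0.83 over the 3 tested and were not called. Myf5 was at 0.74, 0.52 and 0.52 TPM in WT and at 2.11, 1.46 and 0.98 TPM in the mutant (1.35, SE 0.41, adjusted p = 0.262). Myod1 was at 5.44, 7.86 and 6.57 TPM and at 15.9, 11.2 and 8.18 TPM (0.83, SE 0.24, adjusted p = 0.249). Neither gene's groups overlapped, while those of Myog did, at 16.1, 19.9 and 12.2 TPM and at 28.8, 29.4 and 17.8 TPM (0.66, SE 0.22, adjusted p = 0.33). The surface genes had a median of 0.66 and the sarcomere genes 0.52. On the wider muscle list 26 of 32 tested genes had a positive value (median 0.41), 10 of them at an unadjusted p under 0.05. Among the lists of other cell types, each of the 10 fibroblast genes had a negative value (median -0.56, 8 at an unadjusted p under 0.05), and their sum was 4040 to 5120 TPM in WT and 3170 to 3790 TPM in the mutant. The part of this lower fibroblast content in the members' values was not tested. The call was lost without mutant replicate 1 or 2 or WT replicate 1 or 2. Without replicate 3 of the mutant or of WT, 5 members were called (50 of 14405 and 201 of 14222 genes). DESeq2 called 10 members and 222 of 14076 genes.

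**Figure D4:**
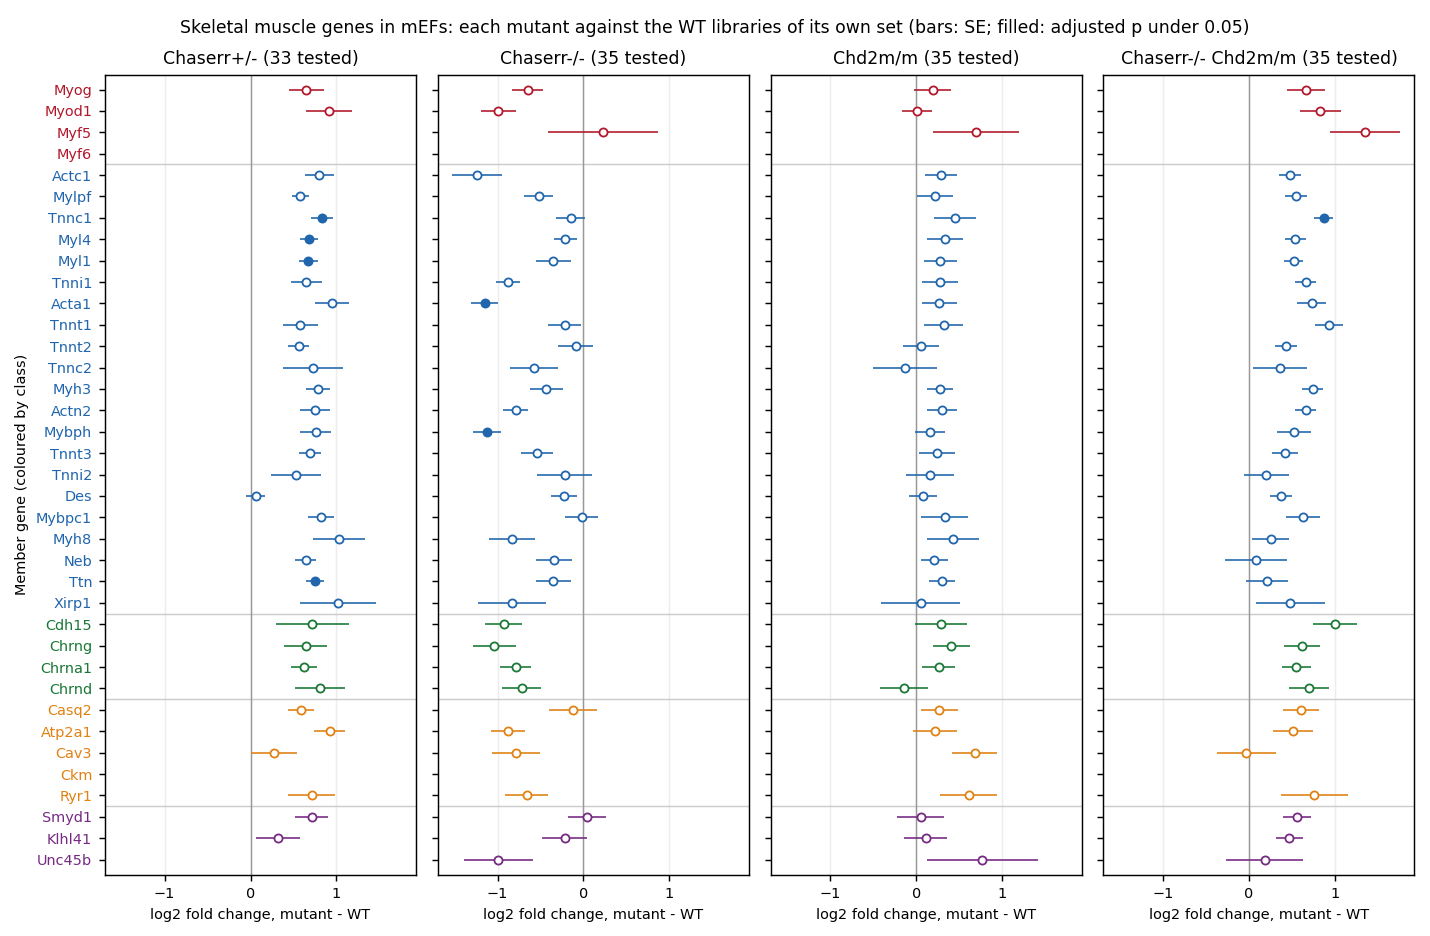
Log2 fold change of each member in each mutant mEF group against the WT libraries of its own set; bars are standard errors, filled symbols have an adjusted p under 0.05, and an empty row did not pass the filter on low counts. Points lie to the right of 0 for all 33 members tested in Chaserr+/-, for 33 of 35 in Chd2m/m and for 34 of 35 in Chaserr-/- Chd2m/m, and to the left for 33 of 35 in Chaserr-/-.

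The difference between the Chaserr-/- effect and the double mutant effect, each taken against its own WT libraries, was fitted directly. Of 36 members tested 5 were called, all with a lower Chaserr-/- effect, against 0.112% of all genes called and 0.0841% called lower. Of the 36, 35 had a negative difference (49.5% of all genes did), and 26 had an unadjusted p under 0.05 and a negative difference (10.1% of all genes), with a median of -1.09 against 0.01 over all genes. Tnni1 was at 134, 122 and 114 TPM in WT and 64.7, 77.8 and 71.3 TPM in Chaserr-/-, and at 48.4, 47.7 and 51.8 TPM in WT and 81.9, 83.1 and 66.5 TPM in the double mutant (difference -1.54, SE 0.18, adjusted p = 0.00855, edgeR). The alpha actinin gene Actn2, which encodes the Z-disc crosslinker, was at 25.0, 19.5 and 19.8 TPM against 12.7, 13.3 and 13.0 TPM in the Chaserr-/- set, and at 8.80, 9.56 and 9.89 TPM against 15.9, 15.1 and 13.7 TPM in the double mutant set (-1.45, SE 0.18, adjusted p = 0.0109). In both genes WT was above the mutant in one set and below it in the other, with no overlap. The 6 mutant libraries spanned 64.7 to 83.1 TPM for Tnni1 and 12.7 to 15.9 TPM for Actn2.

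The other called members followed the same pattern. Acta1 in the double mutant set was at 51.8, 67.0 and 49.8 TPM in WT and at 95.1, 113 and 69.7 TPM in the mutant (difference -1.87, SE 0.26, adjusted p = 0.0141, edgeR). Mybph was at 9.89, 17.8 and 11.2 TPM and at 19.2, 18.3 and 18.2 TPM there (-1.64, SE 0.27, adjusted p = 0.0324). Cdh15 was at 5.29, 5.62 and 5.59 TPM in WT and 3.02, 3.44 and 2.56 TPM in Chaserr-/-, and at 1.97, 2.29 and 1.38 TPM in WT and 3.48, 4.42 and 3.37 TPM in the double mutant (-1.93, SE 0.31, adjusted p = 0.0324). These differences combine 2 mutants with 2 WT groups that themselves differed, and the levels of the WT groups and the genotype cannot be told apart in them. Myod1 (-1.82, adjusted p = 0.0541), Myog (-1.30, adjusted p = 0.0781) and Myf5 (-1.11, adjusted p = 0.382) were not called. The count was 0 without double mutant replicate 1 (0 of 14498 genes) and 19 without Chaserr-/- replicate 2 (1764 of 14479 genes). It was 3 without Chaserr-/- replicate 3, WT replicate 4 of its set or double mutant replicate 2, and 2 without WT replicate 1 of the double mutant set. DESeq2 called 20.

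ATAC-seq marks open chromatin by the insertion of a transposase, and was made from mEFs of the Chaserr-/- and double mutant sets with their WT mEFs. A MACS2 peak overlapped the promoter (300 bases on either side of a start site, mm9) in at least 1 of 12 libraries for 16 of the 37 members, against 66.7% of 22238 genes, and in all 12 for 1 member, against 33.7% of genes. That member was Myl4, with a fold enrichment of 4.06 to 11.1 at the peak. Actn2 (8.85 to 11.63) and Tnnt1 had a peak in 10 libraries, Des and Cav3 in 9, Ryr1 in 5 and Mybpc1 in 4. The regulators had few: Myog in 1 WT and 2 Chaserr-/- libraries (3.80 to 4.67), Myod1 in 1 WT library of the Chaserr-/- set (3.23), and Myf5 and Myf6 in none. Actc1 and Chrng had a peak in 2 libraries, and Chrna1, Cdh15, Casq2, Klhl41 and Unc45b in 1 library each. The other 21 members, Acta1 and Mybph among them, had none, which says only that no peak was called there. The number of peaks per library ran from 18661 to 93597, and both the lowest WT and the lowest mutant library were in the double mutant set, so counts of libraries were not compared between genotypes. The count depended on the window and the threshold. Within 1000 bases on either side, 24 of 37 members had a peak in at least 1 library, against 69.6% of genes, and with a -log10 q of at least 5, 9 members had one within 300 bases, against 63.9% of genes.

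Neuro2a cells, a mouse neuroblastoma line used for the RNA immunoprecipitation, had the regulators at 0 to 0.19 TPM in their 2 input libraries. A few sarcomere genes were present there without them: Tnnt2 at 126 and 138 TPM, Myh3 at 12 and 17.7 TPM, and Tnni1 at 10.4 and 13.9 TPM. These 2 libraries carry no comparison between conditions.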

How the data were processed

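Expected counts and TPM per gene, deposited for 47 RNA-seq libraries, had been estimated by the authors with RSEM on RefSeq transcripts. The embryo, brain and mEF libraries were strand-specific mRNA libraries, TruSeq for embryos and SENSE for mEFs, with both kits in brain, and the 6 RNA immunoprecipitation libraries were depleted of ribosomal RNA (RiboCop). The FPKM columns deposited beside them by the authors were not used. For ATAC-seq, the deposited peaks came from Bowtie2 alignment to mm9 and MACS2 on each library, and the authors' columns hold a score, a fold enrichment ratio over background and -log10 of p and q. The 4C files were not used here.

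Rows were named through RefSeq (GRCm38.p6), which gave a symbol to 24921 of 24990. Rounding turned the expected counts into integers, which were tested with edgeR 4.0.16 in R 4.3.3 (filterByExpr, TMM, quasi-likelihood F test), each set with its own WT, and Benjamini-Hochberg adjustment over all rows tested. DESeq2 1.42.0 was an alternative. Other alternatives were no filter, at least 10 counts in every library, a replicate block, all mEFs in 1 fit and leaving out each library. The scripts were tested on simulated counts. Overlap of groups in the counts of members was judged on TMM-scaled CPM computed from these counts, and between the WT sets on TPM. With 2 or 3 libraries per group, precision was limited by their number. The biological coefficient of variation ran from 0.077 in the Chd2m/m set to 0.334 in brain.

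Any of the 37 members could be named. Values in every library were given for the regulators and, per comparison, for up to 6 called members with the largest change, or up to 3 with the smallest p where none was called, and a few others were chosen after their values were seen, as was the 10-fold limit between stages. The members and lists were chosen with earlier results of these data known. Same-numbered brain libraries deviated together (correlations 0.437, 0.529 and 0.747), a pairing that coincides with the library kit, and no other set passed this check.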

Additional observations from a re-analysis of the deposited data

Results flagged for a closer look

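The fitted change against WT differed for 5 members between Chaserr-/- and Chaserr-/- Chd2m/m mEFs. This was edgeR's test of the difference itself, with each mutant set against its own 3 WT libraries. The difference was -1.54 for Tnni1, -1.45 for Actn2, -1.87 for Acta1, -1.64 for Mybph and -1.93 for Cdh15 on the log2 scale, with the effect in Chaserr-/- the lower one each time. All 5 were lower in Chaserr-/- and higher in the double mutant than in WT by the sign of the fold change. Each of the 5 was also called in the test between the WT libraries of the 4 sets, which called 88.1% of all genes. The part of that difference was not tested. The levels of the WT groups and the genotype cannot be told apart in these values. Without double mutant replicate 1, the test of the difference of effects called 0 of 14498 genes.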

How the results depend on the processing

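Counts of called members in the mEF sets depended on the tool, the filter and the libraries fitted together. DESeq2 called 16 members in Chaserr+/-, 13 in Chaserr-/-, 10 in the double mutant and 20 for the difference of the last pair of effects. Over all genes DESeq2 called 99 of 13282, 2582 of 13580, 222 of 14076 and 1510 of 14273 in that order, where edgeR called 16 in Chaserr-/- mEFs. Without a filter on low counts the member counts were 12, 11, 6 and 17 in that order. Over all genes they were 68 of 18169, 1407 of 18671, 103 of 19227 and 226 of 19788. With at least 10 counts in every library, 11 members were called in Chaserr-/- (1383 of 12673 genes) and 2 in the double mutant (19 of 13018 genes). The stage difference in Chaserr+/- embryos then had 16 of 28 members called, against 10153 of 13714 genes. A fit over all mEF libraries called 0 in Chaserr+/-, 16 in Chaserr-/- and 3 in the double mutant (7, 4851 and 106 of 15124 genes). With the replicate number as a block, 13 members were called in Chaserr+/-, 1 (Tnnc1) in Chd2m/m and 4 in the double mutant. Over all genes these counts were 74 of 13282, 99 of 13777 and 75 of 14076. The replicate numbers of these sets did not pass the check for pairing. In brain, where they did, 0 members were called with the block and 5 had an unadjusted p under 0.05, as had 1954 of 14911 genes. In the Chaserr-/- set no such block could be fitted, because its mutant mEFs are numbered 1 to 3 and its WT mEFs 4 to 6.

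Leaving out each library gave 32 to 33 called members for the stage difference in WT, 23 to 30 in Chaserr+/-, 0 to 8 in Chaserr+/- mEFs, 0 to 11 in Chaserr-/-, 0 to 5 in the double mutant, 0 to 19 for the difference of effects and 32 to 35 between the WT sets. It gave 0 throughout for the interaction, E9.5, E13.5, brain and Chd2m/m comparisons. Over all genes, calls without 1 library ran from 3 to 54 in Chaserr+/- mEFs and from 2 to 2827 in Chaserr-/-. They ran from 3 to 201 in the double mutant and from 0 to 1764 for the difference of effects. With a -log10 q of at least 5, 9 members had a promoter peak, and 24 had one within 1000 bases on either side of a start site. Over all members and alternatives, 228 of 4943 refitted log2 fold changes had the opposite sign to the reported one, and none of these was called in either fit. The most were 22 of 37 for the interaction and 17 of 34 at E9.5 without Chaserr+/- replicate 3, 19 of 35 in Chd2m/m without mutant replicate 2, and 17 of 37 at E13.5 without WT replicate 1. The cause was not tested.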
